A study of Mus musculus with 4 samples.

Results

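The genes described here encode the protein components of the cytoplasmic ribosome. The family was chosen with earlier results of these data known. Its members were taken by name, as protein-coding genes of the GENCODE annotation whose symbols are Rps or Rpl followed by a number. Rplp0, Rplp1, Rplp2 and Rpsa were included as well. The choice gave 84 members among the 55602 genes of the bulk table, 32 of the small (40S) subunit and 52 of the large (60S) subunit. No symbol ending in -ps and no Rps6k kinase gene was kept, and a further 6 symbols of the right form (Rps4l, Rps12l1, Rpl32l, Rpl6l, Rps3a2 and Rps3a3) were left out because they are annotated as pseudogenes.

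RNA was sequenced from cells that were differentiated from mouse embryonic stem cells (ESCs) and harvested at day 12. Both genotypes carry the JB1 background, that is, male F1 hybrid cells of a JF1 mother and a C57BL/6 (B6) father, and both received 1 µM cyclopamine, an inhibitor of Hedgehog signalling, from day 2 to day 10. The groups were 2 wild-type (WT) replicates and 2 replicates of a single Zfp57-deficient line derived from JB1 (Zfp57-KO). ZFP57 is a zinc-finger protein that keeps the methylation of imprinting control regions, and because each group is 1 cell line, differences between the lines other than the targeted gene cannot be told apart from its loss.

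A cytoplasmic ribosome holds 1 copy of nearly every ribosomal protein, so that the messenger RNAs of the family are made in similar amounts in most tissues and are among the most abundant of a growing cell. Many of these messenger RNAs begin with a terminal oligopyrimidine (TOP) tract, a cytosine followed by further pyrimidines, through which mTOR signalling and LARP1 control their translation. The genes have left many processed pseudogenes, intronless copies that can be nearly identical to the messenger RNA and so compete for short reads. Pluripotent cells and neural progenitors both make ribosomes actively, and ribosome production falls as neurons mature.

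The start sites of a few members show the tract from which the TOP class takes its name. Sequences were taken from RefSeq promoters on GRCm38.p6, which covered 64 of the 84 members, and each run spans 10 bases before the annotated start and 20 from it on, with the pyrimidine tract in capitals.
Rps18 (chr17:33955646-33955675, minus strand): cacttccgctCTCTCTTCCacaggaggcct
Rpl15 (chr14:18270967-18270996, minus strand): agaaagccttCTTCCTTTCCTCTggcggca
Rplp2 (chr7:141447641-141447670, plus strand): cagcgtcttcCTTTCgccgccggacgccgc
Rps27 (chr3:90213629-90213658, minus strand): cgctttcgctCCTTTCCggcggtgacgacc
A C followed by 4 or more C or T at the annotated start base was found in 13 of the 64 members (20.3%), against 3.01% of 27025 genes with a promoter. Allowing the C to lie up to 3 bases from the annotated start gave 25 members (39.1%) and 13.5% of all genes, so the count depends on how exactly the start is annotated. The letters CCGGAAG, an ETS-type motif searched on both strands of the 300 bases, were present in 26 members (40.6%) and in 9.93% of all genes. CACGTG, the E-box that MYC binds, was present in 6 members (9.38%) and in 8.09% of all genes.

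The libraries held 7663520 and 10225378 assigned fragments in WT and 9545119 and 10337082 in Zfp57-KO. Zfp57 itself had 392 and 249 counts in WT and 158 and 144 in Zfp57-KO, with a log2 fold change of -1.19 ± 0.32 (SE, adjusted p = 0.0225). The libraries are labelled neural precursor cells, but the Zfp57-KO libraries carried the transcripts of another state. Of 10 pluripotency markers 8 were higher in Zfp57-KO and none was lower, with a median log2 fold change of 7.66, and their summed normalised counts were 1590 and 2445 in WT and 14479 and 13457 in Zfp57-KO. No pluripotency marker of the list was at 0 in all 4 libraries. Pou5f1, which encodes the pluripotency factor OCT4, had 1 and 6 counts in WT and 2747 and 2286 in Zfp57-KO. Of 10 neural markers 8 were lower and none was higher, with a median of -2.98, and their summed normalised counts were 16493 and 19707 in WT and 3035 and 2874 in Zfp57-KO. Among all tested genes 13% were higher and 14.6% were lower. The part of this difference in cell state in the values below was not tested. In bulk RNA, more transcript per cell cannot be told apart from more cells that carry it.

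Ribosomal protein transcripts took a larger part of the Zfp57-KO libraries. The 84 members together held 3.34% and 3.69% of assigned fragments in the WT replicates, and 5.72% and 5.04% in the Zfp57-KO replicates. The group means were 3.51% ± 0.244 in WT and 5.38% ± 0.482 in Zfp57-KO (SD, n = 2), a ratio of 1.53, and the genotypes did not overlap. With 2 libraries against 2, no exact test could reach 0.05, and none was made on the share. Small-subunit genes rose from 1.42% ± 0.106 to 2.26% ± 0.223, and large-subunit genes from 2.09% ± 0.138 to 3.12% ± 0.259, as means of 2 libraries. The 306 pseudogenes that carry a ribosomal protein symbol held 0.121% and 0.142% in WT and 0.128% and 0.124% in Zfp57-KO, values that overlapped between genotypes.

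Single members were compared with edgeR's quasi-likelihood test over all 19995 genes with more than 8 counts in the 4 libraries together. Of the 84 members 83 were tested, and only Rpl3l fell below that minimum. In Zfp57-KO 48 members were higher at an adjusted p under 0.05 and 0 were lower, while 71 members had an unadjusted p under 0.05. Among all genes 13% were higher and 14.6% were lower, or 27.6% in either direction. These shares cover every tested gene, and those of genes with more counts are given by length class below. Of the members with an unadjusted p under 0.05, 0 were lower, and the share of all genes at that level was not counted. With DESeq2 55 members and 11.2% of all genes were higher, and 0 members were lower. The median log2 fold change was 0.65 over the tested members, with quartiles at 0.51 and 0.85, and -0.01 over all genes. Both Zfp57-KO libraries exceeded both WT libraries in 78 of the 83 members, a pattern seen in 33.7% of all genes. By subunit, 18 of 32 small-subunit and 30 of 51 large-subunit members were higher, with medians of 0.64 and 0.65. The plot of members by library shows a broad shift of moderate size, and a few genes far above it.

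**Figure D1:**
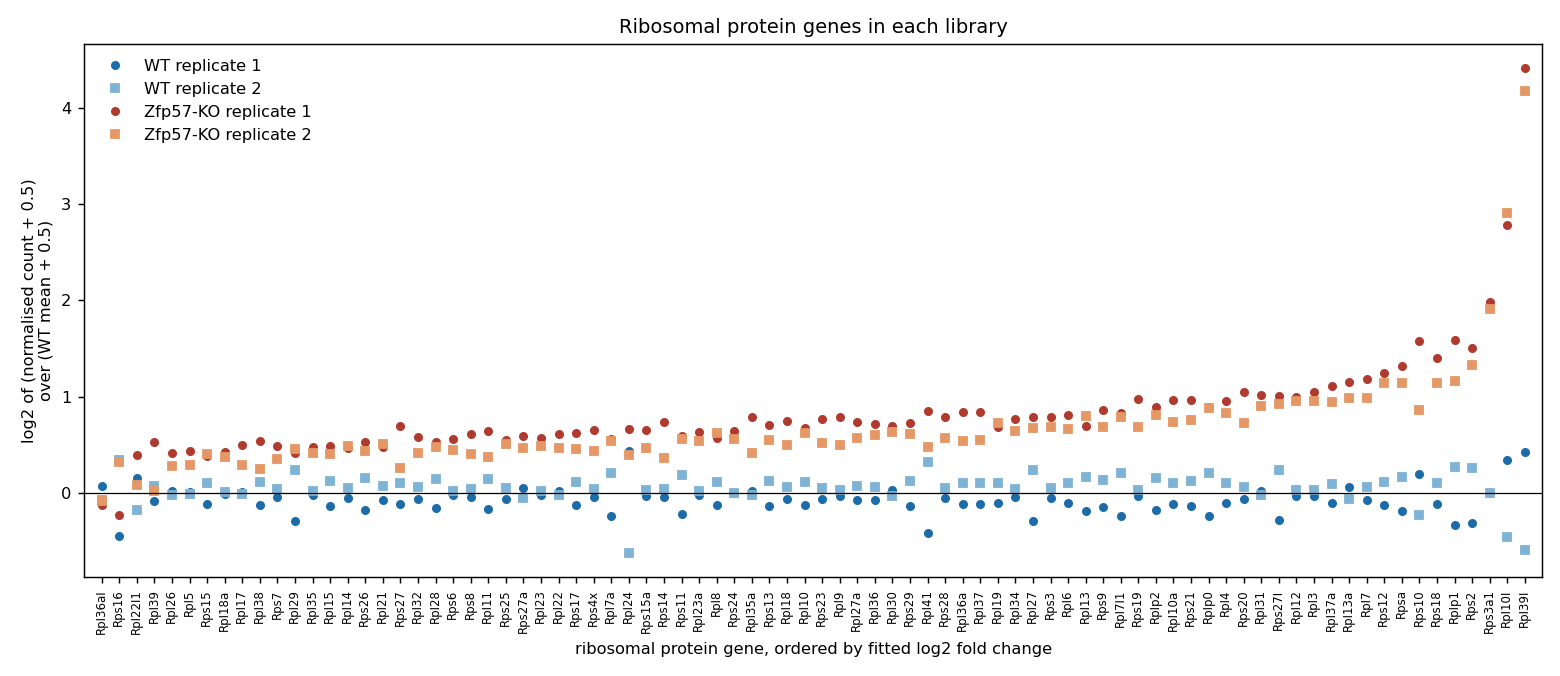
Ribosomal protein genes (82 of the 83 tested), ordered from left to right by fitted log2 fold change, with the normalised count of each library relative to the WT mean on a log2 axis (0.5 added to both). WT libraries are blue and Zfp57-KO libraries red or orange, and in 77 of the 82 genes both Zfp57-KO points lie above both WT points.

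The count of members depended on single libraries and on the scale. Without WT replicate 1 or WT replicate 2 it was 76 and 80, and without Zfp57-KO replicate 1 or Zfp57-KO replicate 2 it was 7 and 11. All genes called higher in these 4 fits made up 19.1%, 25.6%, 6.2% and 6.42%, so that the count of 7 of 83 lay near its background, whereas the median stayed between 0.55 and 0.74. When Actb (beta-actin) was used as the scale, 1 member and 2.43% of all genes were higher, and the median of the members was -0.02. That scale moved the median of all genes to -0.68, so that members still stood 0.66 above it, and Actb itself differed between the WT replicates, with 14634 and 37665 counts. A count of members therefore describes a level relative to the other genes of the library and not an amount per cell.

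Fold changes also moved with gene length, and the part of length in the members' values was examined by class. Outside the family, the median log2 fold change of genes above 30 CPM (counts per 1e6 assigned) was 0.45 up to 1 kb of exon, 0.39 from 1 to 2 kb, 0.30 from 2 to 4 kb, 0.06 from 4 to 8 kb and -0.17 above 8 kb. In the same order, 24.3%, 24.5%, 22.9%, 15.7% and 10.2% of these other genes were called higher. The members in the first 4 of these classes had medians of 0.66, 0.55, 0.74 and 0.68, above the other genes of their class each time. Of the members in these classes, 8 of 13, 13 of 35, 22 of 29 and 5 of 6 were higher. After a per-library correction for gene length, 36 members and 16.3% of all genes were higher. The median of the members fell to 0.49, against 0.05 for all genes.

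**Figure D2:**
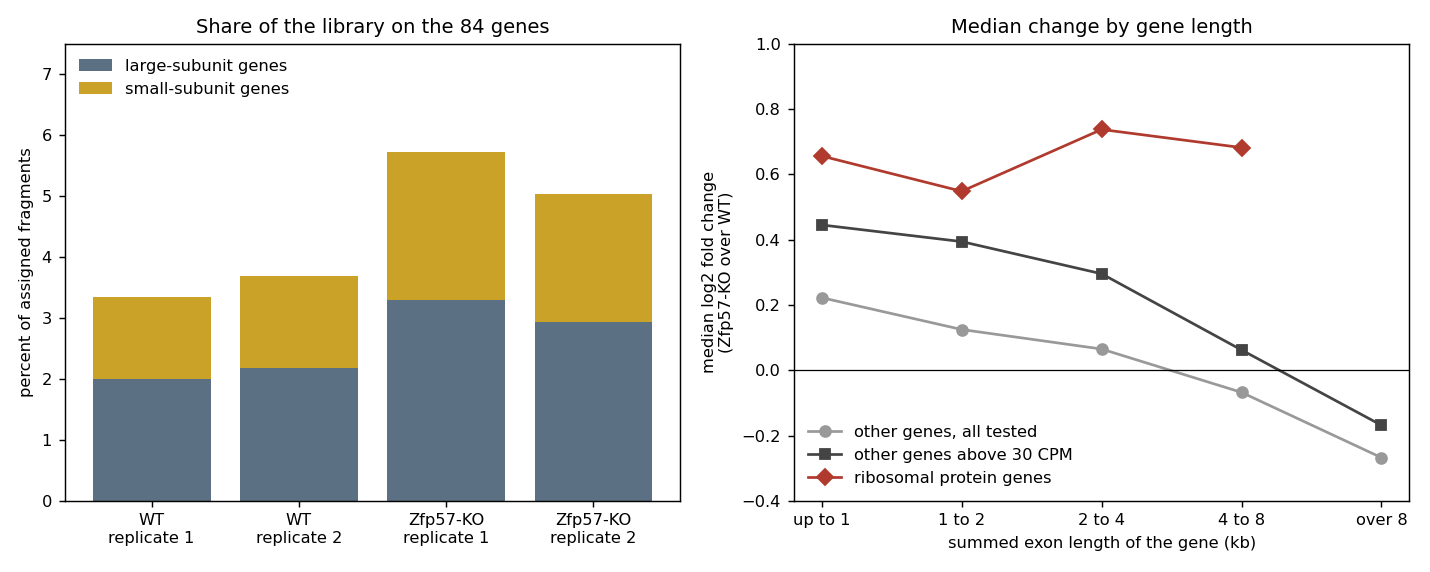
Left, the percent of assigned fragments on the 84 genes in each library, split by subunit, with sums of 3.34% and 3.69% in WT and 5.72% and 5.04% in Zfp57-KO. Right, the median log2 fold change in 5 classes of summed exon length for ribosomal protein genes (red) and for other genes (grey, and black for those above 30 CPM); the other genes fall with length, and the ribosomal protein genes stay between 0.55 and 0.74.

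The largest rise among members with at least 100 normalised counts was in Rps3a1, which encodes eS1, a protein of the small subunit near the exit of the messenger RNA channel. Rps3a1 had 1591 and 2070 counts in WT and 7252 and 7264 in Zfp57-KO, or 1849 ± 3.95 and 7126 ± 238 normalised counts. This gave a log2 fold change of 1.95 ± 0.19 (SE, adjusted p = 7.06e-05). Rps2, whose product lines the entry of the messenger RNA channel, had 4615 and 8854 counts in WT and 18677 and 17453 in Zfp57-KO. Its log2 fold change was 1.42 ± 0.23 (adjusted p = 0.00174). Rplp1 had 1749 and 3437 counts in WT and 7651 and 5977 in Zfp57-KO, with a log2 fold change of 1.39 ± 0.25 (adjusted p = 0.00285). Rps18, a protein of the head of the small subunit, had 1705 and 2580 counts in WT and 5607 and 4950 in Zfp57-KO, with a log2 fold change of 1.28 ± 0.20 (adjusted p = 0.00129). In all 4 of these genes, which were picked for their fold change, the lower Zfp57-KO library exceeded the higher WT library. The same held in 78 of the 83 tested members and 33.7% of all genes.

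At the other end stood Rps16, Rpl22l1, Rpl39 and Rpl26, none of which passed the test. Rps16, a protein of the small-subunit head that reaches the P site, had 1135 and 2546 counts in WT and 1521 and 2348 in Zfp57-KO. Its log2 fold change was 0.07 ± 0.28 (adjusted p = 0.877), and its replicates differed by more than its genotypes. Rpl26, a large-subunit protein that also binds Trp53 messenger RNA, had 4314 and 5429 counts in WT and 6517 and 6241 in Zfp57-KO, with a log2 fold change of 0.35 ± 0.18 (adjusted p = 0.196).

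Members were then read by their place in the ribosome, beside the 48 of 83 tested members and 13% of all genes that were higher. The stalk is the flexible arm of the large subunit that recruits the translation GTPases, built on Rpl12 and Rplp0 with Rplp1 and Rplp2 at its tip, and all 4 of its genes were higher. Rplp0 had 5454 and 9638 counts in WT and 13786 and 14355 in Zfp57-KO, which gave a log2 fold change of 0.89 ± 0.21 (adjusted p = 0.0128). Rplp2 had 1496 and 2447 counts in WT and 3631 and 3586 in Zfp57-KO, a log2 fold change of 0.85 ± 0.20 (adjusted p = 0.0109). For Rpl12 the log2 fold change was 0.97 ± 0.19 (adjusted p = 0.0041). Rpl5 and Rpl11, which carry the 5S ribosomal RNA into the large subunit and bind MDM2 when free, had log2 fold changes of 0.37 ± 0.19 and 0.52 ± 0.20 and did not pass (adjusted p = 0.178 and 0.0883).

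Around the peptide exit tunnel, Rpl4 was higher, with 8760 and 13147 counts in WT and 21081 and 20364 in Zfp57-KO and a log2 fold change of 0.89 ± 0.20 (adjusted p = 0.00854). Rpl17 and Rpl39, the other tunnel proteins of the list, had log2 fold changes of 0.40 ± 0.19 and 0.29 ± 0.22 and did not pass (adjusted p = 0.144 and 0.351). Along the messenger RNA channel and at the decoding site, 3 of 4 genes were higher, namely Rps2, Rps3 and Rps23, beside 48 of 83 members. Rps3, a protein of the channel entry, had 5519 and 7668 counts in WT and 11381 and 11116 in Zfp57-KO, a log2 fold change of 0.74 ± 0.19 (adjusted p = 0.0172). Rps23, which lies in the decoding centre, was at 0.65 ± 0.20 on the same scale (adjusted p = 0.0343). Rps15, whose tail reaches the decoding site, had 3560 and 5358 counts in WT and 5791 and 6149 in Zfp57-KO, and its log2 fold change of 0.39 ± 0.19 did not pass (adjusted p = 0.151). Rps27a, which is made as a fusion with ubiquitin, was at 0.53 ± 0.19 (adjusted p = 0.06).

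Levels were compared between members as fragments per kilobase of exon, scaled to the library's assigned fragments (FPKM). In WT they ran from 0 for Rpl3l to 785 ± 66.7 for Rps15, with a median of 191, and the median in Zfp57-KO was 294. Rplp1, Rpl4 and Rps15 had the highest mean level over both genotypes, at 565 ± 153, 605 ± 50.3 and 785 ± 66.7 in WT and 1383 ± 316, 1041 ± 84.1 and 954 ± 13.3 in Zfp57-KO (SD, n = 2). The Zfp57-KO values were 1606 and 1159 for Rplp1, 1100 and 982 for Rpl4, and 963 and 944 for Rps15. These did not overlap between genes, but the ranges of mean and SD did, and the order was not tested. The ranking depended on the length used. With the coding transcript's length in place of the exon length, the WT means of Rps12 and Rpl7 were 1398 and 1154. Those of Rplp1, Rpl4 and Rps15 were then lower, at 565, 790 and 989. Outside the paralogs, Rpl24, Rps10 and Rpl13a were lowest per kilobase of exon, at 3.15 ± 1.64, 2.82 ± 0.64 and 29.3 ± 2.45 in WT. These 3 genes lie under another annotated gene on the same strand, over 47.0%, 20.6% and 29.4% of their exon length (Gm28037, RPS10-NUDT3 and Gm45713), and fragments that fall on 2 genes are not assigned to either. Their counts, such as 34 and 21 in WT and 46 and 40 in Zfp57-KO for Rpl24, leave out the fragments on the shared exons. Rps10 (58 and 56 in WT, 175 and 112 in Zfp57-KO) and Rpl13a (502 and 595 in WT, 1236 and 1156 in Zfp57-KO) were nevertheless called higher, with log2 fold changes of 1.27 ± 0.34 and 1.08 ± 0.19 (adjusted p = 0.0216 and 0.00257).

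Unique alignment removes reads that match a pseudogene as well as the gene. Of the 84 members, 73 had at least 1 stretch of the read length that was found base for base in a transcript of another gene. In 30 members at least 50% of the stretches were shared. These counts take in genes of any type, also genes that lie over the member itself, and not only pseudogenes. For Rpl13a the shared 54.0% lay in Gm45713, which overlaps it, and not in a pseudogene. The share ran from 0% in genes such as Rpl22 and Rps3 to 98.2% in Rps27, and Rps2 shared stretches with 29 pseudogenes, the most of any member. Over the 56 members that no other gene overlaps on their strand, the level per length in WT and the shared percent had a Spearman rho of 0.13, given as a description since the members share libraries. The 14 of them with at least 50% shared had a median level of 225 and the other 42 of 182. Of the first 5 were higher in Zfp57-KO with a median log2 fold change of 0.51, and of the second 24 with 0.65. Reads here come in pairs, which a single stretch does not represent, so the shared percent is not the percent of fragments lost. Overlapping genes on the other strand were not looked for, and Rpl35, one of the 56 members, shares 50.9% of its stretches with Wdr38.

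**Figure D3:**
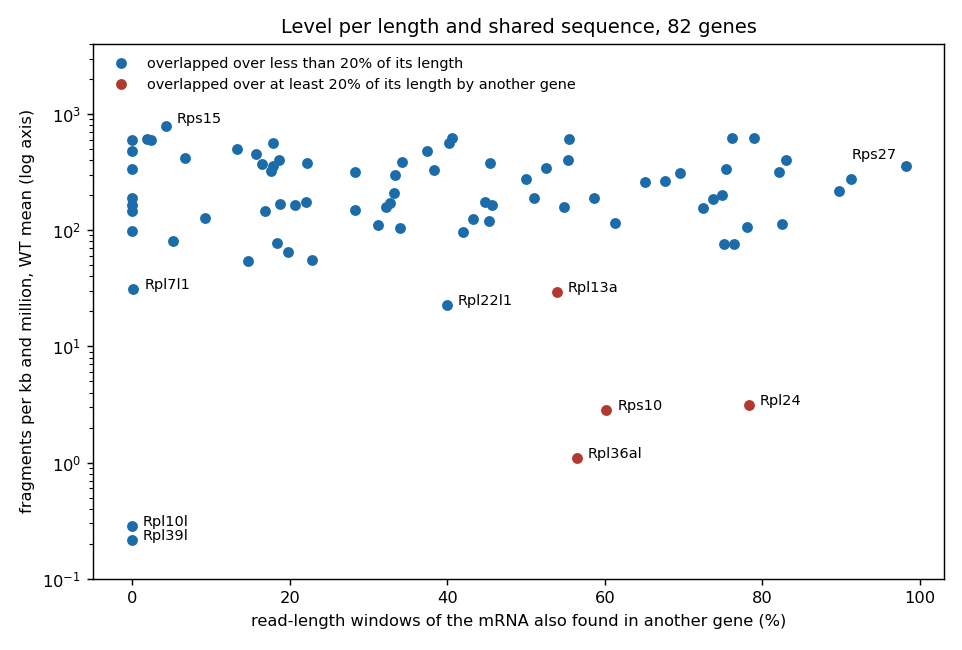
Level per length in WT (mean of 2 libraries, log axis) of 82 ribosomal protein genes against the percent of read-length stretches of their messenger RNA that occur in another gene. The 4 genes that another gene overlaps on the same strand over at least 20% of their length (red) lie low. Levels of the others vary widely, for instance 54.3 for Rps19 and 785 for Rps15. Among the 56 genes that no other gene overlaps on the same strand, the medians were 225 at or above 50% shared and 182 below.

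Of the 306 pseudogenes with a ribosomal protein symbol 69 were tested, and 9 were higher and 4 were lower in Zfp57-KO. The first count lay near the 13% of all genes that were higher, and the second below the 14.6% that were lower. The 4 that fell were Rps3a3, Rpsa-ps10, Rps2-ps10 and Rpl3-ps1, which were singled out after their values were seen, and each bears the name of a member that rose. Copies under other symbols were counted by shared sequence. Of all tested pseudogenes that share a read-length stretch with a member, 77 had another symbol. Of these 7 were higher and 2 were lower, both below the shares over all genes. The 2 were Gm6472, which shares 53.0% of the stretches of Rps7, and AC122453.1, which shares 5.76% of those of Rpsa.

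Gm6472 had 157 and 233 counts in WT and 8 and 7 in Zfp57-KO (log2 fold change -4.71, adjusted p = 1.85e-05), whereas Rps7 did not pass the test (0.42 ± 0.19, adjusted p = 0.123). Rps3a3 had 2043 and 2914 counts in WT and 1543 and 1620 in Zfp57-KO (log2 fold change -0.68, adjusted p = 0.0218). Rpsa-ps10 had 1019 and 1876 counts in WT and 24 and 31 in Zfp57-KO (log2 fold change -5.72, adjusted p = 2.5e-06). Rps2-ps10 had 369 and 854 counts in WT and 3 and 4 in Zfp57-KO (log2 fold change -7.39, adjusted p = 5.16e-06). Rpl3-ps1 had 328 and 481 counts in WT and 113 and 145 in Zfp57-KO (log2 fold change -1.68, adjusted p = 0.000508). The summed normalised counts of Rps3a1 and Rps3a3 were 4217 and 4458 in WT and 8846 and 8509 in Zfp57-KO, a 2.00-fold difference against 3.85-fold for Rps3a1 alone. The corresponding folds with and without the pseudogene were 2.03 and 2.35 for Rpsa, 2.45 and 2.67 for Rps2, and 1.89 and 2.00 for Rpl3. When every member was summed with the pseudogenes that share sequence with it and the fit was repeated, 48 members and 13.1% of all genes were higher. The log2 fold change of Rps3a1 was then 0.94 (adjusted p = 0.00468).

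The sequences of Rps3a1 and Rps3a3 are shown because this pair had the largest gap between the fold of the gene and that of the sum. Their 795 coding bases differ at 9 positions (98.9% identical), with a longest identical run of 215 bases. The most different 60 bases, coding positions 201 to 260 of Rps3a1, are printed from the GENCODE vM21 transcripts with differing bases in capitals.
Rps3a1: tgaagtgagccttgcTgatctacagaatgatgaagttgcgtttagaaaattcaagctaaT
Rps3a3: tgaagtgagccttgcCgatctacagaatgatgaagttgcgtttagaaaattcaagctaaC

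Paralogs are second genes that encode a near copy of a ribosomal protein and often replace it in a restricted set of tissues. Rpl39l and Rpl10l, which are best known from the male germ line, rose from almost nothing. Rpl39l had 2 and 1 counts in WT and 44 and 39 in Zfp57-KO, at least 13.2-fold higher against a floor of 3 counts in each WT library (adjusted p = 0.00154). Rpl10l, an intronless autosomal copy of the X-linked Rpl10, had 3 and 2 counts in WT and 21 and 24 in Zfp57-KO, at least 7.16-fold higher on the same floor (adjusted p = 0.0164). Their parents had log2 fold changes of 0.65 ± 0.19 for Rpl10 (adjusted p = 0.0325) and 0.29 ± 0.22 for Rpl39 (adjusted p = 0.351). Per length, Rpl39l still made only 2.11% and 2.53% of the pair with Rpl39 in Zfp57-KO, and 0.172% and 0.0596% in WT. Rpl10l made 0.522% and 0.59% of the pair with Rpl10 in Zfp57-KO.

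The reads of Rpl39 and Rpl39l can be told apart, since their 156 coding bases differ at 23 positions (85.3% identical), and neither shares a read-length stretch with another gene. The coding sequences are printed from the same transcripts with differing bases in capitals.
Rpl39: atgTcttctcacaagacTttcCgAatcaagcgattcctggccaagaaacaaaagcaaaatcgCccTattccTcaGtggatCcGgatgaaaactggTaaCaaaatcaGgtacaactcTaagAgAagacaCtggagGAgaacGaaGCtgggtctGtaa
Rpl39l: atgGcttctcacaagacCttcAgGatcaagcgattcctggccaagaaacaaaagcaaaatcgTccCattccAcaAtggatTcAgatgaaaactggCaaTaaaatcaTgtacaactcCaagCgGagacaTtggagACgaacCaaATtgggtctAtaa

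Rps27l, Rpl22l1 and Rpl7l1 were counted beside their parents in every library. Rps27l, a target of p53 in other cells, had 763 and 1413 counts in WT and 2140 and 2124 in Zfp57-KO, a log2 fold change of 0.96 ± 0.22 (adjusted p = 0.00962), and Rps27 one of 0.49 ± 0.21 (adjusted p = 0.111). Per length Rps27l made 26.9% and 31.1% of the pair in WT and 33.9% and 39.4% in Zfp57-KO; Rps27 shares 98.2% of its stretches with another gene, and the part of that in the ratio was not tested. Rpl22l1 had 390 and 403 counts in WT and 533 and 450 in Zfp57-KO (log2 fold change 0.25 ± 0.21, adjusted p = 0.419), and Rpl22 had 2234 and 2833 and then 3889 and 3689 (0.54 ± 0.18, adjusted p = 0.0545). Rpl22l1 made 20.4% and 17.2% of that pair per length in WT and 16.7% and 15.1% in Zfp57-KO, ranges that did not overlap and lay close together. Rpl7l1 was higher at a log2 fold change of 0.81 ± 0.21 (adjusted p = 0.018), beside 1.09 ± 0.20 for Rpl7 (adjusted p = 0.00303), and made 8.01% ± 1.12 of the pair in WT and 6.76% ± 0.475 in Zfp57-KO. Rpl36a was higher at 0.70 ± 0.20 (adjusted p = 0.0279), whereas Rpl36al, overlapped by Gm49383 over 24.5% of its length, had 12 and 14 counts in WT and 12 and 13 in Zfp57-KO. Rpl3l, the striated-muscle form of Rpl3, had 0 counts in 3 libraries and 3 in Zfp57-KO replicate 2. Rps4l, annotated as a pseudogene of the X-linked Rps4x and so not a member, had 99 and 307 counts in WT and 1018 and 974 in Zfp57-KO (log2 fold change 2.32, adjusted p = 0.000882), while Rps4x had 5505 and 7606 and then 10306 and 9323 (0.55 ± 0.19, adjusted p = 0.0589).

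The hybrid background allowed maternal (JF1) and paternal (B6) reads to be counted separately, in 2837013 and 3695630 allelic fragments in WT and 3470671 and 3826604 in Zfp57-KO. Of the 84 members 66 were autosomal with at least 10 normalised allelic counts in both WT replicates and were tested among 10977 genes. The 4 X-linked members (Rpl10, Rps4x, Rpl36a and Rpl39) were left out, and had 4 paternal reads among 34377 in all libraries together, the X chromosome of these male cells being maternal. A further 4 members (Rps2, Rps7, Rpl29 and Rpl3l) had no allelic read and 10 had too few.

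In WT 39 of the 66 members had unequal alleles, 24 towards the maternal and 15 towards the paternal side, where 23.6% of all genes did (14.3% maternal and 9.26% paternal). In Zfp57-KO 33 members were unequal, 17 maternal and 16 paternal, against 21.8% of all genes (9.36% maternal and 12.5% paternal). The median maternal share over the members was 50.6% in WT and 50.2% in Zfp57-KO. In 22 members the same side was favoured in both genotypes and the difference between genotypes was not called, 11 towards each parent. The share of all genes that meet these conditions was not counted, so whether 22 is many cannot be said. Rpl27 was 88.4% ± 1.55 maternal in WT and 90.2% ± 0.314 in Zfp57-KO, and Rps13 was 79.8% ± 0.759 and 80.7% ± 0.809. On the paternal side Rpl35a was 20.5% ± 0.935 maternal in WT and 18.5% ± 0.898 in Zfp57-KO, and Rpl10a was 17.9% ± 0.567 and 20.8% ± 1.22. These values repeat closely between replicates and genotypes, and whether they come from the alleles or from reads that align better for one strain was not tested.

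The allelic balance differed between genotypes in 14 members by the genotype-by-allele contrast, where 14.5% of all genes were called. In 3 the maternal share was higher in Zfp57-KO (4.18% of all genes) and in 11 it was lower (10.3% of all genes). Of the 14, 11 were also higher in the bulk comparison, with a median log2 fold change of 0.85, against 30 of the 52 other members with 0.64.

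**Figure D4:**
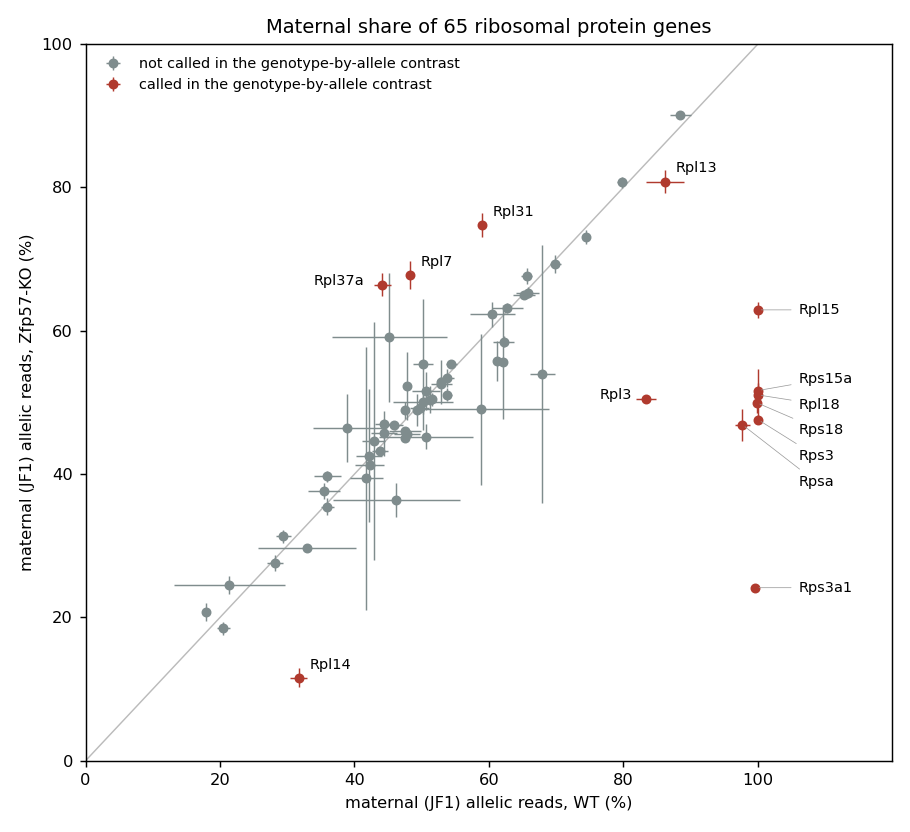
Maternal share of allelic reads in WT (x axis) and Zfp57-KO (y axis) for 65 of the 66 tested ribosomal protein genes, as mean and SD of 2 libraries, with the grey line marking equal shares. The genes called in the contrast (red) include 7 that lie above 90% maternal in WT and between 24.1% and 62.9% in Zfp57-KO, and 3 genes of chromosome 1 above the line.

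The 3 members with a higher maternal share were Rpl7, Rpl31 and Rpl37a, the only members on chromosome 1. Rpl7 was 48.3% ± 0.232 maternal in WT and 67.8% ± 1.92 in Zfp57-KO, Rpl31 59.0% ± 0.548 and 74.7% ± 1.63, and Rpl37a 44.1% ± 1.26 and 66.4% ± 1.58. Maternal reads of Rpl7 rose from 1120 and 1539 to 4203 and 4425, and paternal reads from 1193 and 1661 to 2125 and 1976. The shift was not particular to these genes, because the 15 nearest other genes had medians of 49.2%, 51.1% and 50.9% in WT and 68.5%, 65.2% and 69.0% in Zfp57-KO around Rpl7, Rpl31 and Rpl37a. Over chromosome 1 the median maternal share was 49.0% in WT and 62.0% in Zfp57-KO, whereas on every other autosome it lay between 47.7% and 49.3% in Zfp57-KO. All 3 members were higher in bulk, with log2 fold changes of 1.09 ± 0.20, 0.96 ± 0.19 and 1.03 ± 0.19, and the median of all tested genes on chromosome 1 was 0.13.

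In 7 of the members with a lower maternal share, WT reads were almost wholly maternal and the paternal allele appeared in Zfp57-KO. Rps3 (chr7:99477896-99483738), Rps15a (chr7:118104372-118116188) and Rpl18 (chr7:45715457-45720836) had 0 paternal reads in WT among 7621, 4988 and 113 allelic reads, which allows a paternal share of up to 0.0394%, 0.0601% and 2.65%. In Zfp57-KO they were 47.6% ± 0.665, 51.7% ± 1.06 and 51.0% ± 3.62 maternal, and the paternal allele was at least 1069-fold, 532-fold and 20.1-fold higher against 3 reads in each WT library. The 15 genes nearest to each had a median of 100% maternal in WT and between 47.2% and 49.4% in Zfp57-KO, so the genes around them shared the pattern. Rpl15 (chr14:18267823-18271391) had 855 and 1572 maternal against 0 and 1 paternal reads in WT, and 746 and 751 against 455 and 428 in Zfp57-KO. The genes on both sides of it, Nr1d2 and Nkiras1, were 100% maternal in WT, and 6 of the 15 nearest were at 95% or more. Rps18 (chr17:33951999-33956001), one of the members that flank Zfp57, had 1138 and 1612 maternal against 2 and 4 paternal reads in WT. In Zfp57-KO its reads were 1151 and 983 maternal and 1107 and 1025 paternal, and its 15 nearest genes had a median of 90.9% in WT and 48.1% in Zfp57-KO.

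Around the other members the nearest genes had medians closer to equal shares. Rps3a1 (chr3:86137940-86142702) had 1512 and 1809 maternal against 7 and 5 paternal reads in WT, and 1190 and 1158 against 3677 and 3698 in Zfp57-KO. Its maternal share thus went from 99.6% ± 0.131 to 24.1% ± 0.427 (adjusted p = 2.21e-69), while its 15 nearest genes had medians of 57.1% and 46.4%, none of them at 95% or more in WT. Rnu73b, a small RNA gene that lies within Rps3a1 (chr3:86140618-86140688), was 100% maternal in WT over 20 reads and 33.2% ± 4.5 in Zfp57-KO over 42 reads. Rpsa, which encodes uS2 and is also known as the laminin receptor precursor, had few allelic reads for its level, 63 and 31 maternal against 1 and 1 paternal in WT and 121 and 112 against 146 and 119 in Zfp57-KO. Rpl3, which reaches the peptidyl transferase centre, was less one-sided in WT and was 83.4% ± 1.53 maternal in WT and 50.4% ± 0.16 in Zfp57-KO, from 295 and 322 paternal reads to 2217 and 2150. None of the 15 genes nearest to Rpsa or Rpl3 was at 95% or more in WT, and their medians were 54.7% and 59.9%.

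Pseudogene reads had an allele of their own beside these members. Rpsa-ps10 (chr3:150072658-150073542) was 6.76% ± 2.94 maternal in WT over 926 allelic reads, and 100% maternal in Zfp57-KO over 39. Rps3a3 (chr13:108670603-108671397) was 0% maternal in all libraries, over 123 reads in WT and 62 in Zfp57-KO. Rps2-ps10 and Rpl3-ps1 had no allelic read. The part of read assignment between gene and pseudogene in the missing paternal reads was not tested.

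Rpl14 and Rpl13 changed without an allele being absent. Rpl14 favoured the paternal allele in WT, at 31.7% ± 1.24 maternal, and more so in Zfp57-KO, at 11.6% ± 1.32 (adjusted p = 1.83e-18). Its allelic reads were 321 and 500 in WT and 1782 and 2075 in Zfp57-KO, while its bulk counts were 3711 and 5179 and then 6120 and 6528 (log2 fold change 0.47 ± 0.18, adjusted p = 0.0827). The pseudogene Rpl14-ps1 shares 33.3% of the stretches of Rpl14. It was 100% maternal in WT over 701 allelic reads and 99.9% in Zfp57-KO over 911. The part of read assignment between Rpl14 and this copy was not tested. Rpl13 was 86.2% ± 2.86 maternal in WT and 80.8% ± 1.64 in Zfp57-KO (adjusted p = 0.000314), a small shift between values that do not overlap. The call was lost with DESeq2 (adjusted p = 0.0888) and without WT replicate 2 (adjusted p = 0.29).

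**Figure D5:**
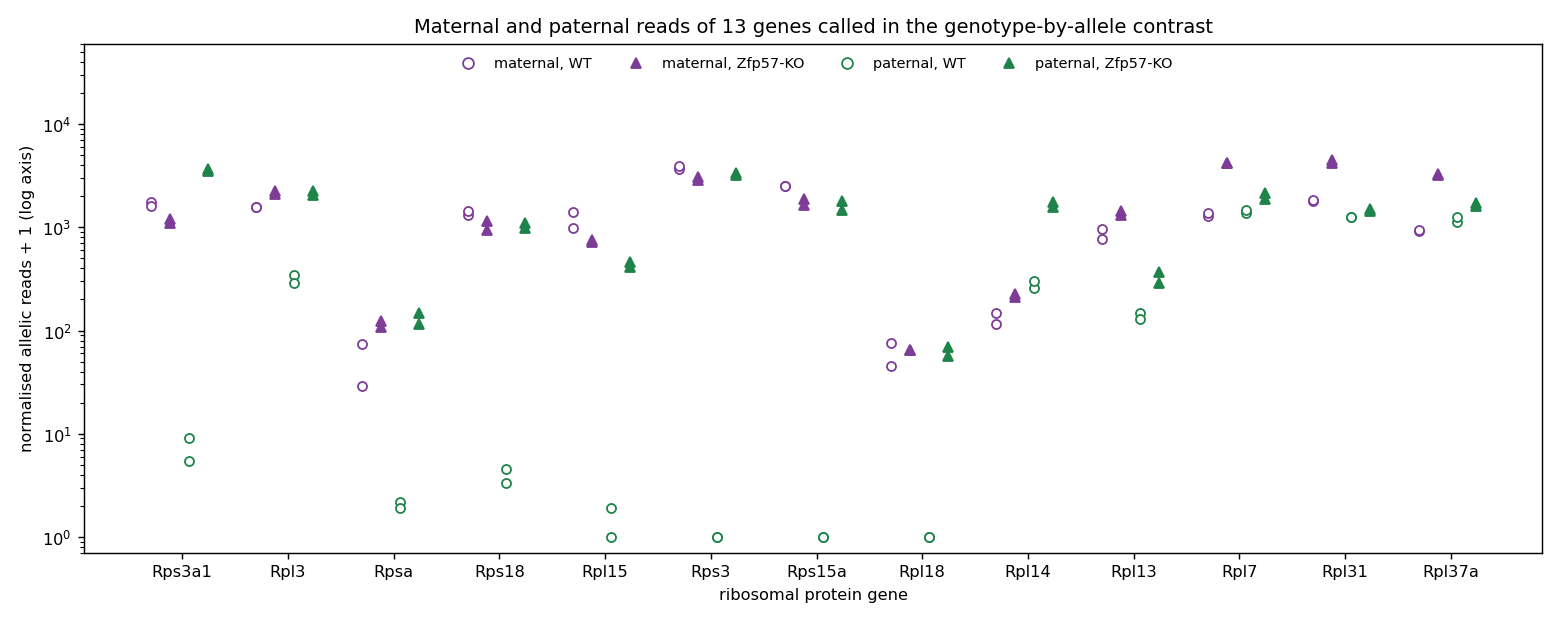
Normalised maternal (purple) and paternal (green) reads of 13 of the 14 genes called in the contrast, 1 point for each library, WT open and Zfp57-KO filled, on a log axis with 1 added. Paternal reads of Rps3, Rps15a and Rpl18 were 0 in both WT libraries, and maternal reads of the chromosome 1 genes Rpl7, Rpl31 and Rpl37a rose more than paternal ones.

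Each allele was also compared between genotypes on the scale of the bulk libraries. The maternal allele was higher in Zfp57-KO in 39 of the 66 members and lower in 2, against 11% and 18.3% of all genes. The 2 were Rps3a1 and Rpl15, the first at a log2 fold change of -0.55 (adjusted p = 0.0445) and the second at -0.71 (adjusted p = 0.0304). The paternal allele was higher in 48 members and lower in 0, against 16.7% and 15.9% of all genes (edgeR). At an unadjusted p under 0.05, 1 paternal allele was lower, that of Rpl22 at -0.51 (adjusted p = 0.105). The paternal alleles of Rps3a1 and Rpl3 rose by log2 fold changes of 9.18 and 2.77, and the maternal allele of Rpl3 had one of 0.47 that did not pass (adjusted p = 0.0661).

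The wider machinery of ribosome production was examined with lists of related genes. Counts in each list stand beside the 13% of all genes that were higher and the 14.6% that were lower. Of 49 genes of ribosome biogenesis, the factors that process ribosomal RNA and assemble subunits, 42 were higher and 0 were lower, with a median log2 fold change of 0.95. Dkc1, the pseudouridine synthase of box H/ACA particles, had 469 and 913 counts in WT and 2507 and 2544 in Zfp57-KO (log2 fold change 1.86 ± 0.23, adjusted p = 0.000327), and Utp20, of the small-subunit processome, had 981 and 1305 and then 3475 and 3352 (1.54 ± 0.19, adjusted p = 0.000287). Gnl3l, the gene of the list with a fold change below 0, was at -0.03 ± 0.19 (adjusted p = 0.915). Of 9 genes of RNA polymerase I, which transcribes ribosomal RNA, 5 were higher and 0 were lower, with a median of 0.71, among them Polr1b at 1.28 ± 0.20 (adjusted p = 0.00117) and Polr1a at 0.87 ± 0.19 (adjusted p = 0.00743).

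Of 21 other TOP messenger RNAs, mostly of translation factors, 6 were higher and 0 were lower, with a median of 0.51. Eef1b2, a subunit of the exchange factor of elongation factor 1, had 2523 and 3699 counts in WT and 8577 and 8065 in Zfp57-KO (log2 fold change 1.39 ± 0.19, adjusted p = 0.000651), and Eef1g, of the same factor, was at 0.71 ± 0.19 (adjusted p = 0.02). Hnrnpa1 and Eif3f had log2 fold changes of -0.15 ± 0.19 and -0.09 ± 0.19 and did not pass (adjusted p = 0.614 and 0.772). Of the 78 mitochondrial ribosomal protein genes 77 were tested, 11 were higher and 0 were lower, a share of higher genes near the 13% of all genes, with a median of 0.43, led by Mrpl15 (1.36 ± 0.20, adjusted p = 0.00101) and Mrps18b (1.36 ± 0.23, adjusted p = 0.00191). Mrpl41 and Mrpl50 had log2 fold changes of -0.32 ± 0.24 and -0.30 ± 0.23 and did not pass (adjusted p = 0.358 and 0.372).

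In these 4 lists 0 genes were lower with DESeq2 or at an unadjusted p under 0.05.

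Fau encodes the ribosomal protein eS30 under a symbol of another form, fused to a ubiquitin-like domain. Fau had 2564 and 3248 counts in WT and 3380 and 3190 in Zfp57-KO (log2 fold change 0.13 ± 0.18, adjusted p = 0.629). Of 15 regulators of ribosomal protein synthesis 2 were higher and 1 was lower, with a median of 0.11, beside 13% and 14.6% of all genes. Myc, which drives ribosome production, had 99 and 220 counts in WT and 409 and 439 in Zfp57-KO (1.41 ± 0.27, adjusted p = 0.00385), and Eif4ebp1, a translation repressor downstream of mTOR, was at 1.19 ± 0.22 (adjusted p = 0.00363). Mycl was lower, with 568 and 880 counts in WT and 256 and 273 in Zfp57-KO (-1.48 ± 0.20, adjusted p = 0.000539). Mycn and Larp1 had log2 fold changes of 0.53 ± 0.20 and 0.52 ± 0.18 and did not pass (adjusted p = 0.0743 and 0.0599), and neither did Rps6kb2, a kinase of Rps6, at -0.52 ± 0.23 (adjusted p = 0.125).

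Cell-state markers were read in the same way, beside the 13% of all genes that were higher and the 14.6% that were lower. Besides Pou5f1, the pluripotency marker Tdgf1 had 0 and 2 counts in WT and 2301 and 2301 in Zfp57-KO, and the neuronal genes Dcx and Map2 had log2 fold changes of -6.42 ± 0.26 and -4.23 ± 0.24. Of 8 markers of endoderm and mesoderm 2 were higher, Eomes (5.17 ± 0.38) and T (2.27 ± 0.33), and 1 was lower, Kdr (-1.67 ± 0.46), which was at -0.66 without WT replicate 1. Their summed normalised counts were 2581 and 4806 in WT and 5399 and 7156 in Zfp57-KO, with no marker at 0 in all libraries. Of 10 proliferation markers 5 were higher and 0 were lower, including Aurka (0.99 ± 0.21) and Mcm5 (1.06 ± 0.24), while Mki67 was at -0.48 ± 0.19 (adjusted p = 0.0804). Their summed normalised counts were 20009 and 23248 in WT and 24757 and 24753 in Zfp57-KO. The part of these shifts in the ribosomal protein genes was not tested.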

How the data were processed

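RNA-seq libraries were made by the authors from day 12 cells with a stranded total RNA kit after depletion of ribosomal RNA, and read as pairs of 125 bases. Per the labels and the paper's methods, the authors trimmed reads with Trimmomatic 0.36, aligned them with STAR 2.5.4a to GRCm38 keeping unique alignments, and counted fragments per GENCODE vM20 gene with featureCounts (Subread 1.6.0). For the allelic table they split reads with SNPsplit 0.3.2 after alignment to a genome masked at strain SNPs. The deposited values are raw counts in both tables, read here without change.

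Genes with more than 8 counts over the 4 libraries were tested with the robust quasi-likelihood test of edgeR 4.0.16 in R 4.3.3, with TMM scaling and Benjamini-Hochberg adjustment over all genes at 0.05. DESeq2 1.42.0 was an alternative. Normalised counts are counts divided by TMM-scaled library size relative to the mean library. For autosomal genes, edgeR was fitted to the 8 columns of allelic counts, with library as a blocking term and maternal-minus-paternal effects by genotype, whose difference is the contrast. A second fit compared each allele between genotypes. The bulk test and the contrast were also run on simulated counts, with a fixed spread for the allelic ones, and the outcome is not given here. Symbols, coordinates and transcripts came from GENCODE vM21 (54721 of 55602 genes matched). Shared sequence was the percent of read-length stretches of the coding transcript found in transcripts of other genes on either strand. Python 3.11.15 with pandas 2.3.3, numpy 2.4.6, Biopython 1.88 and matplotlib 3.10.9 did the rest.

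Members and lists were chosen with earlier results of these data known. Named members are the paralog pairs, the structural groups, the 4 largest and 4 smallest log2 fold changes among members with at least 100 normalised counts, the 3 highest and 3 lowest levels per length, the members on chromosome 1 or nearest to Zfp57, and up to 6 each with the smallest adjusted p in the contrast and in the WT allele test; the other members of the contrast that are named are those the closing section lists. Of each related list, the 2 genes with the lowest adjusted p that were up and the 2 that were down are named, with Fau, Myc, Mycn and Larp1. The replicates are described as biological duplicates; whether they come from separate cultures is not given in the sources used here, so p-values measure the spread between these samples. Values of 2 genes are not reported here, and counts over the whole family or a whole list include them. Limits from a count of 0 use 3 counts and cover counting error only. SE is the log2 fold change divided by the root of the test statistic.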

Additional observations from a re-analysis of the deposited data

Results flagged for a closer look

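The difference between maternal and paternal reads differed between WT and Zfp57-KO in 14 ribosomal protein genes by the genotype-by-allele contrast, and 13 of them are listed here as the log2 difference of the maternal-to-paternal ratio, Zfp57-KO minus WT. The 3 genes of chromosome 1 were positive, with 1.17 for Rpl7, 1.04 for Rpl31 and 1.33 for Rpl37a. Of those with few or no paternal reads in WT, Rps3 was at -15.06, Rps15a at -14.21, Rpl15 at -10.17, Rps3a1 at -9.73, Rpl18 at -8.79, Rps18 at -8.78 and Rpsa at -5.57. The fitted values of Rps3, Rps15a and Rpl18 depend on the small count that edgeR adds to their 0 paternal reads and are no bounds. The remaining values were -2.31 for Rpl3, -1.84 for Rpl14 and -0.61 for Rpl13.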

How the results depend on the processing

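The count of 48 higher members moved to 16 at an adjusted p of 0.01, to 1 with Actb as the scale, to 29 of 55 when members overlapped on their own strand were left out (chosen after seeing the data), and to between 7 and 80 when single libraries were left out. No setting gave a lower member. The median log2 fold change of the members was 0.49 after the gene-length correction and -0.0168 with Actb as the scale, under which the all-gene median was -0.68 (on library totals it was -0.12, and 37 members were higher), and it lay between 0.55 and 0.74 when single libraries were left out. Scaled to Actb, 37 of the 83 members had a positive log2 fold change, against 82 before. Among the genes named in the text it fell below 0 for Rps16 (-0.49), Rpl22l1 (-0.48), Rpl39 (-0.36), Rpl26 (-0.35), Rpl5 (-0.33), Rpl17 (-0.29), Rpl24 (-0.26), Rps15 (-0.26), Rpl15 (-0.20), Rps27a (-0.17), Rpl22 (-0.15), Rps27 (-0.15), Rps4x (-0.12), Rpl11 (-0.12), Rps15a (-0.12), Rps23 (-0.0168), Rpl10 (-0.00116), Fau (-0.56), Mycn (-0.0928) and Larp1 (-0.14). Rps16 was also at -0.0401 on library totals, at -0.16 with the length correction, and at -0.30 without WT replicate 1 and -0.23 without Zfp57-KO replicate 2, in a range of -0.30 to 0.53. The length correction turned Fau to -0.17 and Gnl3l to 0.14. Small values changed sign when 1 library was left out for Gnl3l (range -0.19 to 0.12) and Mrpl50 (-0.57 to 0.00452), both without WT replicate 2, and for Eif3f (-0.21 to 0.0316, without Zfp57-KO replicate 1). Kdr lay between -2.27 and -0.66, the latter without WT replicate 1. Summing members with pseudogenes, chosen after seeing the data, turned Rpl36al to 0.0101.

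The difference in the share of fragments lay between 1.53 and 2.21 percentage points when single libraries were left out. On raw counts the change in a paralog's part was 0.224 percentage points for Rpl10l, 1.29 for Rpl39l and 6.4 for Rps4l. When single libraries were left out it lay between 0.406 and 0.491 for Rpl10l, 2.00 and 2.41 for Rpl39l, 8.42 and 11.9 for Rps4l, 4.88 and 10.4 for Rps27l, -4.42 and -1.30 for Rpl22l1, -0.531 and -0.286 for Rpl36al, and -2.04 and -0.459 for Rpl7l1. With the coding transcript's length in place of the exon length, the median level in WT was 566. Left-out libraries gave 34 to 40 unequal members in WT, 30 to 33 in Zfp57-KO and 13 to 16 in the contrast. The deviations of libraries with the same replicate number had a correlation of 0.156 (10149 genes), and the labels name no pairing. With the replicate block 53 members and 17.4% of all genes were higher, 6984 genes were called against 5522, and the maternal allele was lower in 4 members. For the genes named in the text, over all alternatives together, 955 single-gene values kept their direction and their side of the threshold, 80 lost a call, 48 gained one and 30 changed sign. Fewer members were available when overlapped members were left out, and a stricter threshold calls fewer by construction. The cause of the other changes was not tested.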
